A study of Mus musculus with 6 samples.

Results

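ATP-binding cassette (ABC) transporter genes were compared between sorted Cck-expressing cells and other cells of the mouse intestine. The group was defined by name: genes with 1 annotated symbol that begins with Abc, a letter from a to g and a digit, without the sulfonylurea receptor genes Abcc8 and Abcc9, each read on the probe set of highest mean signal across the 6 arrays. It held 43 of the 18193 genes measured. Both groups came from adult Swiss Webster mice that carry a CCK-EGFP transgene, in which enhanced green fluorescent protein marks cells expressing the gut hormone cholecystokinin (Cck). The 3 CCK-EGFP samples were the fluorescent intestinal cells collected by flow sorting, and the 3 non-EGFP samples were intestinal cells without fluorescence, taken in equal number. Each sample was measured on 1 Affymetrix array after amplification of picograms of total RNA. The labels describe all 6 samples as enteroendocrine and do not say how many mice gave each sample or whether mice differed between samples. P-values therefore reflect only how much these 3 samples per group varied, which may be technical variation.

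ABC proteins bind and hydrolyse ATP to move lipids, sterols, bile salts, drugs, peptides and conjugated metabolites across membranes. In the intestine several of them sit in the brush border and return absorbed sterols and foreign compounds to the gut lumen, while others export metabolites or cholesterol across the basolateral side toward the blood. Members of subfamilies E and F have the ATP-binding domains but no membrane-spanning part, and act in translation.

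Values are log2 intensities from RMA, a method meant to make arrays comparable, so that 1 unit is a doubling. A background level of 4.60 was taken from 71 olfactory and vomeronasal receptor genes, as the 95th percentile of their means. The marker gene Cck read 13.52, 12.90 and 13.06 on CCK-EGFP replicates 1 to 3 and 8.65, 8.35 and 8.89 on the non-EGFP arrays. All 8 enteroendocrine markers examined were higher in CCK-EGFP cells, beside 14.0% of all genes. Enterocyte markers were present in both groups: the mean over 13 of them was 12.36, 12.43 and 13.07 on CCK-EGFP replicates 1, 2 and 3 and 13.40 to 13.46 on the non-EGFP arrays. Of these 13 genes, 4 were lower in CCK-EGFP cells and 9 did not pass (limma, adjusted p under 0.05). Among all genes 10.2% were lower. In 10 of the 13 every CCK-EGFP array lay below every non-EGFP array (28.1% of all genes), and in 0 above. None was below the background level in either group. In bulk samples, fewer cells of a type and less RNA per cell cannot be told apart.

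Of the 43 ABC genes, 7 were higher in CCK-EGFP cells and 7 were lower (limma with Benjamini-Hochberg adjusted p under 0.05 over all 18193 genes). The calls came to 16.3% in each direction, beside 14.0% higher, 10.2% lower and 24.1% in either direction among all genes. Differences of at least 3 on the log2 scale were reached by 4 of the higher ABC genes (9.3%), beside 4.01% of all genes. With each array centred on its median, 7 ABC genes were higher and 9 lower, and among all genes 2101 (11.5%) were higher and 3604 (19.8%) lower, against 2540 and 1851 as deposited. The higher genes were Abcc12, Abca5, Abcc1, Abcc4, Abcg1, Abcb4 and Abcc3. The lower genes were Abcc6, Abcg8, Abcc2, Abcg5, Abcc10, Abcd2 and Abcd4. In each of these 14 genes the arrays of the groups did not overlap. In all, 10 ABC genes had every CCK-EGFP array above every non-EGFP array (21.8% of all genes did) and 12 had every one below (28.1% of all genes). The median log2 difference was -0.18 over the ABC genes and -0.17 over all genes. The multidrug resistance proteins of subfamily C held 4 of the 7 higher and 3 of the 7 lower genes, with 1 of 8 members not past the threshold, and the median size of their differences was 2.36, beside 0.55 for all genes. Subfamily A had 1 of 14 members past the threshold, subfamily B 1 of 8, subfamily D 2 of 3, subfamily G 3 of 6, and subfamilies E and F none of 4. 

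**Figure D1:**
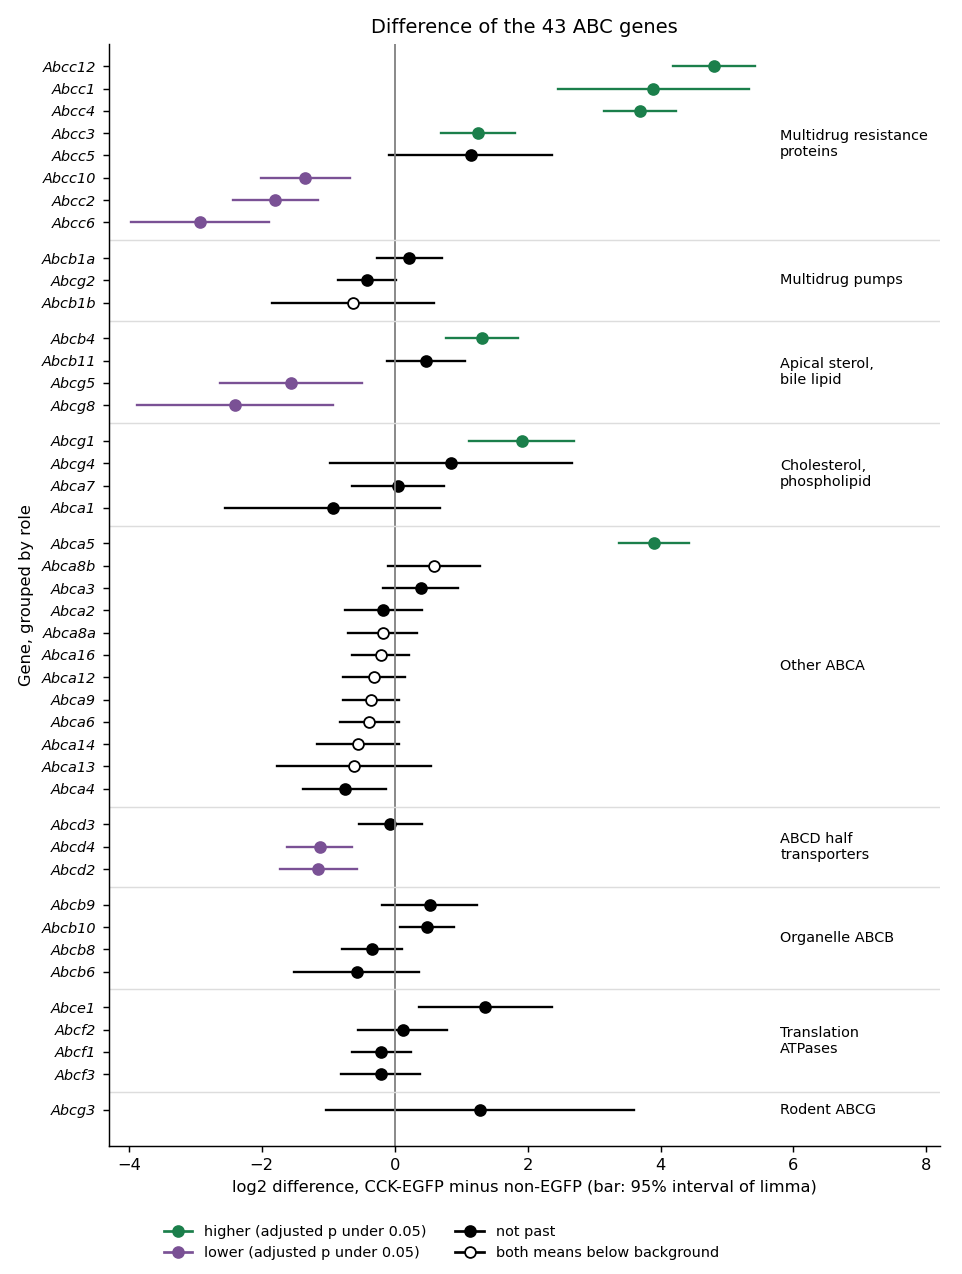
Log2 difference between CCK-EGFP and non-EGFP cells (x axis) for each of the 43 ABC genes, grouped by role (y axis), with the 95% interval of the limma fit as a bar. Green points are the 7 higher genes and purple points the 7 lower ones, black points did not pass, and open points had both group means below the background level; the multidrug resistance proteins span from -2.93 to 4.80.

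Promoter sequences are given for Abcg5 and Abcg8, which lie head to head, and for the 3 other called genes of largest difference among the 28 ABC genes with a single promoter window (Abcc12, Abca5 and Abcc2). They cover 250 bases before to 50 after the start of transcription in RefSeq (GRCm38.p6), which held windows for 34 of the 43 genes. Capitals mark matches on either strand to 5 motifs: the GC box GGGCGG, the CCAAT box CCAAT, the TATA box TATAAA, the nuclear receptor core site AGGTCA and the GATA site GATAAG. No match overlapped another in these windows. Abcg5 and Abcg8 encode the subunits of an obligate heterodimer, the sterol pump sterolin, and their starts are 110 bases apart on opposite strands, so that 209 of the 300 bases are shared and read in reverse complement. RefSeq also lists a further start for Abcg8, not shown.
Abcg5, chr17:84682962-84683261, minus strand: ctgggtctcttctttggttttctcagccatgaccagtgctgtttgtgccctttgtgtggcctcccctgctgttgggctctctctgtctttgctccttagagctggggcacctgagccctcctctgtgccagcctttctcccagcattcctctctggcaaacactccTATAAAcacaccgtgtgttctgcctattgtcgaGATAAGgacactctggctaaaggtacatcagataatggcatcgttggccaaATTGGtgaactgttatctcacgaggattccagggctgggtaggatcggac
Abcg8, chr17:84682871-84683170, plus strand: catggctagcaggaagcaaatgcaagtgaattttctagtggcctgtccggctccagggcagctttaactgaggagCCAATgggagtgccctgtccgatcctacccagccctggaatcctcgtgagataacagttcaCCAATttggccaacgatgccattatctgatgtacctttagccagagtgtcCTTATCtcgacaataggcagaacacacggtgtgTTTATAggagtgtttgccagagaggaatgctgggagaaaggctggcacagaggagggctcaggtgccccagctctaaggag
Abcc12, chr8:86566541-86566840, minus strand: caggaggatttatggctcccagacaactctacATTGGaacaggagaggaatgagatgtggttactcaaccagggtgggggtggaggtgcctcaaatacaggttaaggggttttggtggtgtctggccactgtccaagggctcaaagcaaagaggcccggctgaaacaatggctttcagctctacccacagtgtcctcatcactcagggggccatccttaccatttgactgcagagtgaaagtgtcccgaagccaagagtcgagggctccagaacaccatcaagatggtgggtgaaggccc
Abca5, chr11:110337667-110337966, minus strand: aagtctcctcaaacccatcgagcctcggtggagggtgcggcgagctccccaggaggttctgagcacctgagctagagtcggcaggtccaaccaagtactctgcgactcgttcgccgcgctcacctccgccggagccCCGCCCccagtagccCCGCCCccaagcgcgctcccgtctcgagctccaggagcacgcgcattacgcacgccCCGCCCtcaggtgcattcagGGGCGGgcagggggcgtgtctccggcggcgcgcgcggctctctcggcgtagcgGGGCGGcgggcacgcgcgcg
Abcc2, chr19:43782058-43782357, plus strand: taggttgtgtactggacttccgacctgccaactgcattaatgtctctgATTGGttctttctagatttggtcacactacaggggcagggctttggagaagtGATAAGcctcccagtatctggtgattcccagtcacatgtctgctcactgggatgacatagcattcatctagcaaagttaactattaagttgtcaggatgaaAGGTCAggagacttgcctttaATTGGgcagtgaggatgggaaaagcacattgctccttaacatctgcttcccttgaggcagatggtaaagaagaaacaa

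The shared stretch of Abcg5 and Abcg8 contained a TATA box, a GATA site and a CCAAT box, and the Abcg8 window had another CCAAT box beyond it. The promoter of Abca5, a higher gene, held 5 GC boxes and was 72.3% G and C. That of Abcc2, a lower gene, held a core site for nuclear receptors, a GATA site and 2 CCAAT boxes at 45.0% G and C, and that of Abcc12 only a CCAAT box at 53.7%. Of 32851 promoter windows in the table, 35.7% held a GC box, 37.4% a CCAAT box, 13.6% a TATA box, 16.3% a nuclear receptor core site and 7.44% a GATA site. Over the 41 windows of ABC genes the shares were 48.8%, 36.6%, 17.1%, 17.1% and 12.2%. A match is a description of letters and not a bound site.

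The multidrug resistance proteins, organic anion pumps that often carry glutathione, glucuronide or sulfate conjugates, held 7 of the 14 calls. Abcc12, a member of this subfamily whose substrates are little known, read 8.66, 9.17 and 9.39 on CCK-EGFP replicates 1 to 3 and 4.01, 4.48 and 4.34 on non-EGFP replicates 1 to 3. Every non-EGFP value lay below the background level and every CCK-EGFP value well above it. Against that level Abcc12 rose at least 22.3-fold (fitted change 4.80 on the log2 scale, SE 0.26, limma adjusted p = 0.000177). Its other probe set stayed below the background level in both groups and differed by -0.46 (adjusted p = 0.207 over all probe sets), and on the mean of its probe sets the gene differed by 2.17. Abcc4, which exports cyclic nucleotides, prostaglandins and bile acid conjugates, read 7.96, 8.47 and 8.10 in CCK-EGFP cells, against 4.61, 4.63 and 4.23. Its mean without fluorescence lay under that level, and Abcc4 rose at least 11.9-fold (fitted change 3.69 on the log2 scale, SE 0.22, adjusted p = 0.000276). Abcc1, a basolateral exporter of glutathione conjugates and leukotrienes, read 9.90, 10.00 and 9.68 against 4.52, 6.79 and 6.60.

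The CCK-EGFP arrays were close together for Abcc1, while non-EGFP replicate 1 stood apart, below the background level. The log2 difference of Abcc1 was 3.89 (SE 0.60, limma adjusted p = 0.00689), a 14.8-fold change, and without non-EGFP replicate 1 it was 3.16 (adjusted p = 0.0013). Both probe sets of Abcc1 were called, the other at 2.81. Abcc3, a basolateral pump for glucuronides and bile salts, was well above background in both groups, at 11.70, 11.93 and 11.62 against 10.88, 10.30 and 10.31. It was 2.39-fold higher in CCK-EGFP cells (log2 difference 1.25, SE 0.23, adjusted p = 0.0126), and the call ended without CCK-EGFP replicate 2 (adjusted p = 0.0579).

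The falling members of the same subfamily included both an apical and a basolateral transporter. Abcc2, the pump that secretes conjugated metabolites across the brush border, read 9.21, 9.08 and 9.94 in CCK-EGFP cells, against 11.26, 11.23 and 11.14, on a probe set of the type that can match several related transcripts. The non-EGFP arrays had an SD of 0.06 (n = 3), and all 3 CCK-EGFP arrays lay below them. Abcc2 was 3.47-fold lower in CCK-EGFP cells (log2 difference -1.80, SE 0.27, limma adjusted p = 0.00612). Abcc6, a basolateral transporter linked to cellular ATP release and to soft-tissue calcification, read 5.58, 5.36 and 6.89 against 8.64, 8.75 and 9.25. It was 7.64-fold lower (log2 difference -2.93, SE 0.43, adjusted p = 0.00604), the largest fall among the 43 genes. Abcc10, a broad-range drug exporter, read 7.03, 6.88 and 7.09 against 8.83, 7.83 and 8.36. Its difference was -1.34 (SE 0.28, adjusted p = 0.0187), and dropping CCK-EGFP replicate 1 or 2 ended the call, with adjusted p reaching 0.0761. So did the mean of its probe sets (-0.76, adjusted p = 0.128).

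The 1 member of the subfamily that did not pass was Abcc5, an exporter of cyclic nucleotides and other organic anions. It read 11.09, 10.46 and 10.93 in CCK-EGFP cells, against 10.28, 10.25 and 8.50, where replicate 3 stood below the other arrays (log2 difference 1.15, 95% interval -0.08 to 2.37, limma adjusted p = 0.142). Abcc5 has 10 probe sets, the most of any ABC gene here. The pair with the highest signal differed by 1.15 and 1.18, the others by -0.30 to 0.59, and none passed the threshold over all probe sets.

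**Figure D2:**
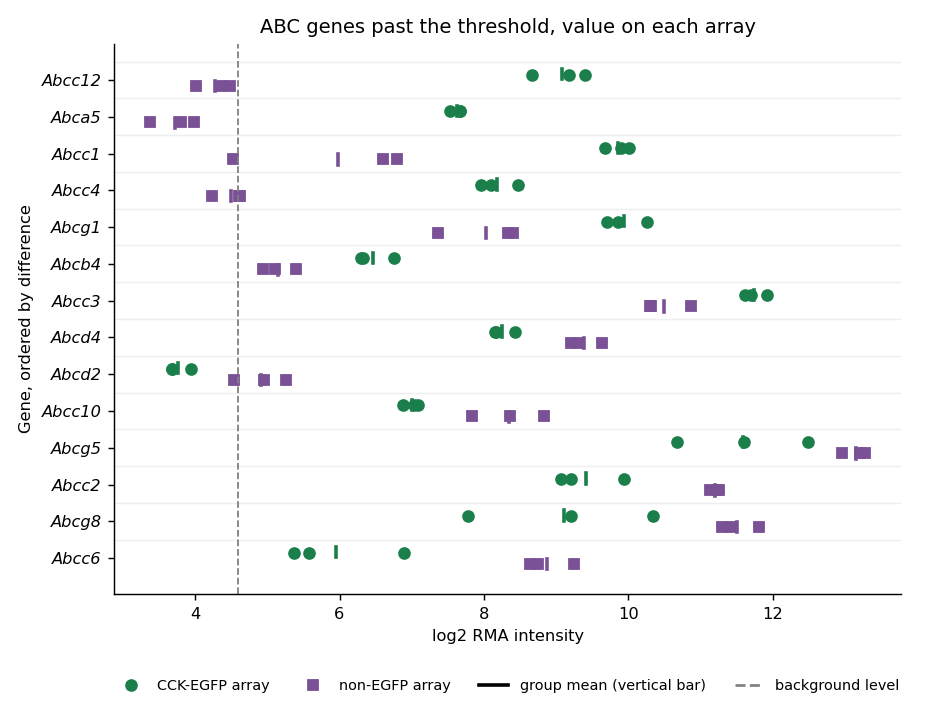
Log2 RMA intensity (x axis) of the 14 ABC genes past the threshold (y axis, ordered by difference) on each array; green circles are CCK-EGFP arrays, purple squares non-EGFP arrays, short vertical bars the group means, and the dashed line is the background level of 4.60. The groups do not overlap for any of the 14 genes, and the non-EGFP means of Abcc12, Abca5 and Abcc4 lie left of the dashed line.

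Sterol and bile lipid exporters moved in both directions. Abcg8 read 7.78, 9.21 and 10.34 on CCK-EGFP replicates 1, 2 and 3 and 11.43, 11.82 and 11.30 on the non-EGFP arrays. Its partner Abcg5 read 10.68, 11.61 and 12.49 against 12.96, 13.29 and 13.22. In both genes CCK-EGFP replicate 1 was lowest and replicate 3 highest, and the spread within CCK-EGFP cells (SD 1.28 for Abcg8 and 0.91 for Abcg5, n = 3) exceeded that within non-EGFP cells (SD 0.27 and 0.17). Abcg8 was 5.29-fold lower in CCK-EGFP cells (log2 difference -2.40, SE 0.61, limma adjusted p = 0.0348) and Abcg5 2.95-fold lower (log2 difference -1.56, SE 0.45, adjusted p = 0.0482).

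Dropping CCK-EGFP replicate 1 or 2 or any non-EGFP array ended that of Abcg5, with adjusted p reaching 0.13. Dropping CCK-EGFP replicate 2 or any non-EGFP array ended that of Abcg8, with adjusted p reaching 0.0998. Without CCK-EGFP replicate 3, the array with the highest enterocyte marker mean of its group, the difference of Abcg8 was -3.02 (adjusted p = 0.0106) and that of Abcg5 was -2.01 (adjusted p = 0.0138). Without CCK-EGFP replicate 1, that of Abcg8 was -1.74. The call of Abcg5 also ended when probe sets were tested alone (adjusted p = 0.0547) and after a second quantile normalization (adjusted p = 0.055). CCK-EGFP replicate 3 was likewise the highest of its group for Abcc2 and Abcc6. This trait of the array was not particular to enterocyte markers. The Paneth marker mean was 8.19, 7.76 and 10.17 on CCK-EGFP replicates 1 to 3. The lymphocyte, myeloid and stroma means were also highest on replicate 3, but the enteroendocrine, goblet and tuft means were not. The enterocyte marker list had a median difference of -0.74, beside -1.56 to -2.93 for Abcg5, Abcc2, Abcg8 and Abcc6. These sizes were read at different signal levels and are not directly comparable. The list mean ran from 12.36 to 13.46, where the highest deposited value was 14.80, while Abcg8 ran from 7.78 to 11.82 and Abcc6 from 5.36 to 9.25. The part of enterocyte RNA in these differences was not tested.

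**Figure D3:**
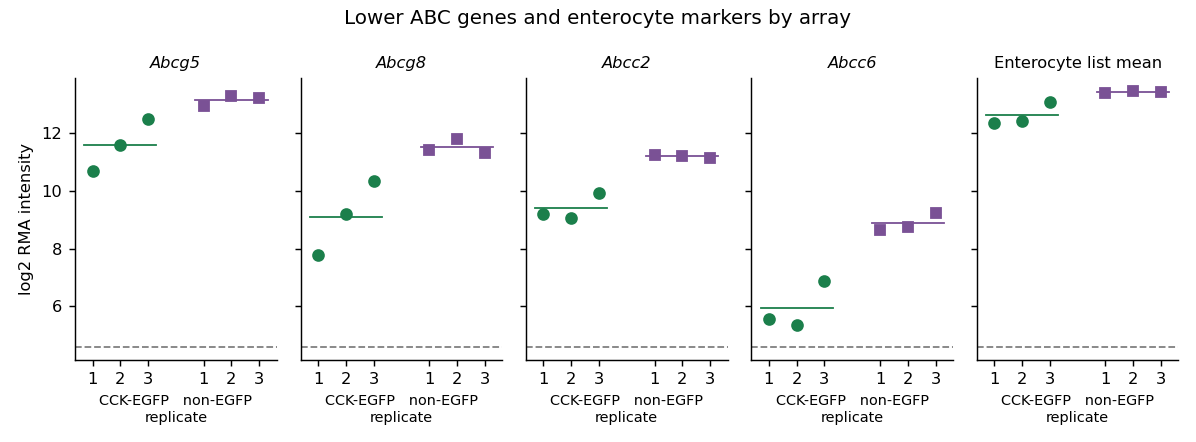
Log2 RMA intensity (y axis) of Abcg5, Abcg8, Abcc2 and Abcc6 and the mean of 13 enterocyte markers on each array (x axis, replicate 1 to 3 in each group), with green circles for CCK-EGFP, purple squares for non-EGFP, horizontal lines at the group means and a dashed line at the background level. In all 5 panels CCK-EGFP replicate 3 is the highest CCK-EGFP array and still lies below each non-EGFP array.

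Abcb4, which moves phosphatidylcholine to the outer face of the membrane and is best known from bile formation, went the opposite way. It read 6.76, 6.32 and 6.30 in CCK-EGFP cells, against 5.11, 5.40 and 4.94, a 2.48-fold increase (log2 difference 1.31, SE 0.23, limma adjusted p = 0.0102). After a second quantile normalization the difference was 0.71 and did not pass (adjusted p = 0.0854). Abcb11, the bile salt export pump, ran from 5.15 to 5.70 and from 4.70 to 5.25, overlapping between the groups (adjusted p = 0.19).

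Among exporters of cholesterol and phospholipid to lipoproteins, only Abcg1 of 4 measured members passed the test. Abcg1, which loads cholesterol onto high-density lipoprotein particles and moves sterols inside cells, read 9.85, 10.26 and 9.71 against 7.37, 8.33 and 8.40. It was 3.76-fold higher in CCK-EGFP cells (log2 difference 1.91, SE 0.33, limma adjusted p = 0.0103), and its other probe set was also higher, by 1.57 (adjusted p = 0.0448 over all probe sets). Abca1, which starts the formation of these particles, read 7.49, 8.97 and 9.32 in CCK-EGFP cells, against 8.40, 10.53 and 9.65. The values overlapped, and the interval of the difference, -2.55 to 0.69, was wide (adjusted p = 0.321). Abca7, a related phospholipid transporter, read 10.29, 9.72 and 9.61 against 10.26, 9.60 and 9.61, with a difference of 0.05 (95% interval -0.64 to 0.74). Abcg4, a sterol exporter known mainly from brain, ranged from 4.70 to 7.05 in CCK-EGFP cells, against 4.80 to 6.47 (adjusted p = 0.416). Markers of myeloid cells, in which Abca1 and Abcg1 are also known to be active, had array means of 6.11 to 7.45 in CCK-EGFP cells, against 7.49 to 7.90. Of 8 such markers, 1 was lower (Cd14) and 7 did not pass, beside 10.2% lower among all genes. The myeloid marker mean of every CCK-EGFP array lay below that of every non-EGFP array, narrowly at the nearest arrays (7.45 against 7.49). The part of myeloid RNA in the values of Abca1 and Abcg1 was not tested.

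The remaining members of subfamily A, mostly lipid transporters of specialised cells, held a single call. Abca5, a sterol and lipid transporter of late endosomes and lysosomes, read 7.67, 7.67 and 7.52 in CCK-EGFP cells, against 3.98, 3.80 and 3.37. All non-EGFP values were below the background level, and Abca5 rose at least 8.12-fold (fitted change 3.90 on the log2 scale, SE 0.22, limma adjusted p = 0.000194). Its other probe set was below the background level in both groups on average and differed by 0.98 (adjusted p = 0.14 over all probe sets), and the mean of both differed by 2.44. On chromosome 11 the genes Abca5, Abca6, Abca9, Abca8a and Abca8b follow each other with no other protein-coding gene between them in RefSeq. The other 4 genes of this row had means between 2.22 and 3.61 in both groups, below the background level, and none passed the test.

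Abca3, a phospholipid transporter of lamellar bodies, read 11.92, 11.71 and 11.68 against 11.16, 11.78 and 11.19 and did not pass (log2 difference 0.39, 95% interval -0.17 to 0.95, adjusted p = 0.243). Its other probe sets differed by -0.11 and -0.68. Abca4, the retinoid transporter of photoreceptors, lay lower on every CCK-EGFP array, at 4.60 to 5.08 against 5.26 to 6.02, without passing (log2 difference -0.75, adjusted p = 0.0789). It passed with each array centred on its median (adjusted p = 0.044) and after a second quantile normalization (-1.19, adjusted p = 0.027). Abca2, a lysosomal lipid transporter, ranged from 6.29 to 6.49 and from 6.14 to 6.87 (adjusted p = 0.612), but passed as lower after a second quantile normalization (-0.89, adjusted p = 0.0455). Abca12, Abca13, Abca14 and Abca16 had both means below the background level, at 1.98 to 3.67.

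Of the 3 general multidrug efflux pumps measured, 0 passed (limma, none with an unadjusted p under 0.05). Abcg2, the breast cancer resistance protein of the brush border, read 11.74, 11.53 and 11.88 in CCK-EGFP cells, against 12.20, 12.08 and 12.12. All CCK-EGFP arrays lay below the others, but the difference of -0.42 (95% interval -0.85 to 0.02) did not pass (limma adjusted p = 0.136). With each array centred on its median it was -0.67 and passed (adjusted p = 0.0466). Abcb1a, which encodes the intestinal form of P-glycoprotein, read 10.99, 10.89 and 11.15 against 10.74, 11.06 and 10.59, and its probe sets differed by 0.22 and 0.21 (95% interval for the first -0.27 to 0.70). Its paralog Abcb1b, the next protein-coding gene on chromosome 5, was below the background level on average in both groups, at 3.31 and 3.94, and only non-EGFP replicate 2, at 5.00, exceeded it. Abcb4 follows Abcb1b directly on the chromosome, so of the 3 neighbours Abcb4 alone passed the test.

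Subfamily D works in the membranes of peroxisomes and lysosomes. Abcd4, which acts in the release of vitamin B12 from lysosomes, read 8.16, 8.17 and 8.42 in CCK-EGFP cells, against 9.21, 9.30 and 9.64. It was 2.19-fold lower (log2 difference -1.13, SE 0.20, limma adjusted p = 0.0114), and its other probe set was lower by 0.96 as well, at 6.37, 6.86 and 6.74 against 7.57, 7.48 and 7.81. Dropping CCK-EGFP replicate 1 or 2 ended the call, with adjusted p reaching 0.0553. Abcd2, a peroxisomal transporter of very long-chain and polyunsaturated fatty acids, was near the background level, at 3.67, 3.68 and 3.95 against 4.95, 5.26 and 4.54. By that level it fell at least 1.25-fold (fitted change -1.15 on the log2 scale, SE 0.24, adjusted p = 0.0187), and dropping CCK-EGFP replicate 1 or 2 ended the call, with adjusted p reaching 0.0769. So did the mean of its 4 probe sets (-0.42, adjusted p = 0.139). Abcd3, the peroxisomal membrane protein that imports branched-chain and bile acid precursors, read 12.57, 12.31 and 12.58 against 12.79, 12.39 and 12.48. The groups overlapped, and the 95% interval of the difference ran from -0.54 to 0.41 (adjusted p = 0.814).

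Of the subfamily B transporters of mitochondria and lysosomes, 0 of 4 passed (adjusted p at least 0.0824 by limma, 1 with an unadjusted p under 0.05). Abcb10, a mitochondrial inner membrane protein needed for heme synthesis, came nearest. It read 11.54, 11.62 and 11.47 in CCK-EGFP cells, against 11.07, 10.97 and 11.15, with every CCK-EGFP array above the others (log2 difference 0.48, adjusted p = 0.0824), and passed with trend and robust settings of the test (adjusted p = 0.0353). Its other probe sets differed by -0.42 and -0.59. Abcb6, a porphyrin-related transporter, read 9.70, 9.66 and 9.11 against 10.64, 10.29 and 9.26, overlapping through the third array of the non-EGFP group (adjusted p = 0.301). Abcb8, of the mitochondrial inner membrane, ranged from 7.58 to 7.92 against 7.94 to 8.19 (adjusted p = 0.214) and passed as lower after a second quantile normalization (-0.82, adjusted p = 0.0189). Its other probe set, with means of 5.17 and 5.90, differed by -0.73 and passed as lower (limma adjusted p = 0.0423 over all probe sets). Abcb9, a lysosomal peptide transporter, ranged from 7.87 to 8.45 against 7.10 to 7.97 (adjusted p = 0.224).

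The soluble ABC proteins of translation also had 0 of 4 members past the threshold (limma, 1 with an unadjusted p under 0.05). Abce1, which splits ribosomes after termination, read 11.38, 11.14 and 11.06 in CCK-EGFP cells, against 8.91, 10.05 and 10.52. The groups did not overlap, and non-EGFP replicate 1 was the lowest by more than 1 unit. The difference was 1.36 (SE 0.42, adjusted p = 0.057), and it passed without non-EGFP replicate 3 (adjusted p = 0.0313). It also passed with array weights (adjusted p = 0.0316), with trend and robust settings (0.0365), among genes above the background level (0.0496) and after a second quantile normalization (0.0444). Its next probe set differed by 1.50. Abcf1, a factor of translation initiation, read 12.00, 12.09 and 12.15 against 12.38, 12.40 and 12.07, and its 6 probe sets differed by -0.60 to -0.20. Abcf3 read 9.13, 9.51 and 9.06 against 9.10, 9.76 and 9.47 (adjusted p = 0.533), and Abcf2 ranged from 7.41 to 8.25 against 7.37 to 7.84 (adjusted p = 0.764).

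Abcg3, a rodent gene of the ABCG family, read 3.23, 5.31 and 6.27 on CCK-EGFP replicates 1 to 3 and 2.36, 3.43 and 5.17 on non-EGFP replicates 1 to 3. In each group replicate 1 was the lowest array and replicate 3 the highest. The unpaired difference of 1.28 did not pass (limma adjusted p = 0.34), while with the replicate number as a block it did (adjusted p = 0.0382). The non-EGFP mean of 3.65 lay below the background level, and against that level the rise was at least 1.26-fold. The other probe set of Abcg3 was below that level in both groups on average and differed by -0.06. The means over 8 lymphocyte markers, as the values of Abcg3, were lowest on replicate 1 and highest on replicate 3. They were 9.25, 9.98 and 11.30 in CCK-EGFP cells and 9.91, 10.29 and 11.10 in non-EGFP cells. The part of lymphocyte RNA in the values of Abcg3 was not tested.

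**Figure D4:**
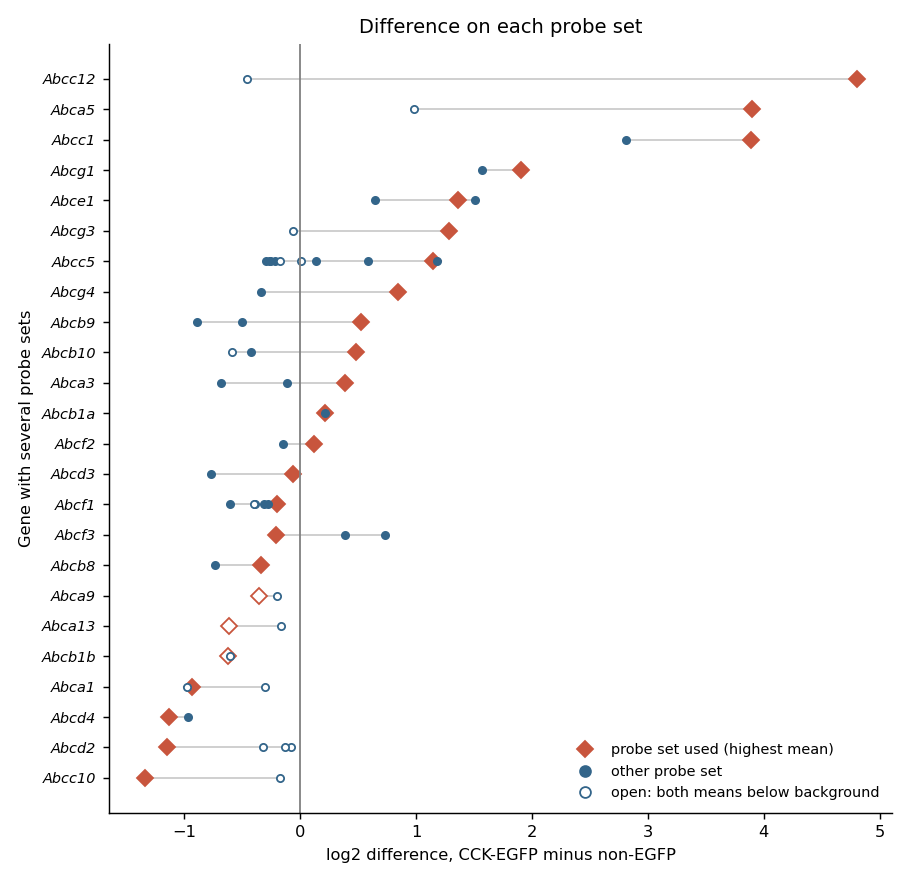
Log2 difference between CCK-EGFP and non-EGFP cells (x axis) on each probe set of the 24 ABC genes with several probe sets (y axis); red diamonds are the probe sets used, blue circles the others, and open symbols had both group means below the background level. Abcc1, Abcg1 and Abcd4 were called on each of their probe sets, whereas Abcc12 and Abca5 had another probe set below background.

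Of the 43 genes 24 had more than 1 probe set, and in 9 of these the probe sets differed in sign. Of the 14 called genes, only Abca5, Abcc1, Abcc10, Abcc12, Abcd2, Abcd4 and Abcg1 had several probe sets, and among them the sign differed for Abcc12 alone. The remaining called genes had 1 probe set each, so no other probe set could be compared. Abcb9, Abcb10, Abca3, Abcf2, Abcf3, Abcg3, Abcg4 and Abcc5, none of them called, were the other genes with probe sets of different sign.

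Genes around the transporters were followed in lists by function. The 3 ABC genes without an Abc symbol were lower or not past the threshold. Tap2 and Tap1, the subunits of the peptide transporter for antigen presentation, differed by -2.01 (SE 0.30, limma adjusted p = 0.00627) and -1.90 (adjusted p = 0.0176), and dropping CCK-EGFP replicate 2 or non-EGFP replicate 2 ended the call of Tap1, with adjusted p reaching 0.0567. The mean of the probe sets of Tap1 differed by -0.74. Cftr, the chloride channel of the family, differed by -2.80 but varied widely in CCK-EGFP cells (SD 2.13, n = 3) and did not pass (adjusted p = 0.0845), except without CCK-EGFP replicate 3 (-3.92, adjusted p = 0.00886), with arrays centred on their median (adjusted p = 0.0481) and on the mean of its probe sets (adjusted p = 0.0243). Without CCK-EGFP replicate 1 the difference of Cftr was -1.80 (adjusted p = 0.168).

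Of 15 bile acid and xenobiotic genes measured, 8 were lower and 0 higher, and their median difference was -1.20. Among all genes 10.2% were lower and 14.0% higher, with a median difference of -0.17. Among them were the xenobiotic receptor Nr1i3 (-2.49, limma adjusted p = 0.0141), the repressor Nr0b2 of bile acid synthesis (-2.18, adjusted p = 0.0275), glutathione synthetase Gss (-1.92, adjusted p = 0.00577) and Slc51b, a subunit of the basolateral bile acid exporter (-1.69, adjusted p = 0.0114). The call of Nr1i3 ended without CCK-EGFP replicate 2 (adjusted p = 0.0594). Dropping replicate 1 or 2 of either group ended that of Nr0b2, with adjusted p reaching 0.0859, as did the replicate number as a block (adjusted p = 0.0674). Gclm (-0.64) and Nfe2l2 (-0.64) did not pass (adjusted p = 0.0535 and 0.111). With arrays centred on their median both passed as lower (adjusted p = 0.0251 and 0.0362), and Gclm passed in 3 other settings (adjusted p from 0.0382 to 0.0496).

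Sterol and lipid partners went both ways, with 2 of 14 higher, 5 lower and 7 not past the threshold, beside 14.0% higher and 10.2% lower among all genes. Their median difference was -0.22, beside -0.17 for all genes. Nr1h3, the oxysterol receptor LXR alpha that is known to activate Abca1, Abcg1, Abcg5 and Abcg8, was lower, with a mean of 7.43 ± 0.45 (SD, n = 3) beside 9.50 ± 0.12 in the other cells (change of -2.07 on the log2 scale, SE 0.27, limma adjusted p = 0.00368). The lysosomal cholesterol exporter Npc1 was lower too, with a log2 difference of -1.53 (adjusted p = 0.0103). The lipoprotein receptor Scarb1 was higher by 1.67 (adjusted p = 0.0234) and the sterol-sensing factor Srebf2 by 1.43 (adjusted p = 0.0441). Dropping CCK-EGFP replicate 1, CCK-EGFP replicate 2 or non-EGFP replicate 2 ended the call of Scarb1, with adjusted p reaching 0.0871. Dropping any array except non-EGFP replicate 3 ended that of Srebf2, with adjusted p reaching 0.132, as did the block (0.0727). Hmgcs1, of cholesterol synthesis, differed by 0.51 (adjusted p = 0.0815). It passed as higher on the mean of its probe sets (1.18, adjusted p = 0.0281) and with trend and robust settings (adjusted p = 0.0134). Apoa1, the main protein of high-density lipoprotein, differed by -0.01 (adjusted p = 0.968).

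For comparison with the lists that follow, 10.2% of all genes were lower and 14.0% higher, with a median difference of -0.17. In the peroxisomal fatty acid oxidation list the median difference was -0.80. By limma 7 of its 9 genes had an unadjusted p under 0.05, beside 7404 of all 18193 genes. After adjustment 2 of the 9 were lower and 0 higher, Cat by -0.90 (limma adjusted p = 0.0412) and Acaa1a by -0.80 (adjusted p = 0.0462). Dropping any array except CCK-EGFP replicate 3 ended both calls, with adjusted p reaching 0.135, as did the replicate number as a block (0.0546 and 0.0771). Ehhadh (-1.22) and Slc27a2 (-0.69) did not pass (adjusted p = 0.0563 and 0.0599). Both passed as lower with trend and robust settings (adjusted p = 0.0374 and 0.0197) and with arrays centred on their median (0.0258 and 0.0249). Ehhadh also passed with array weights, on the mean of probe sets, under both filters on dim genes and without CCK-EGFP replicate 3 (adjusted p from 0.0235 to 0.0498). In the mitochondrial iron-sulfur and heme list 2 of 13 were lower and 0 higher, with a median difference of -0.07. The lower genes were the iron importer Slc25a28 (-0.68, limma adjusted p = 0.0367) and the heme synthesis enzyme Alas1 (-0.66, adjusted p = 0.0423). Dropping any of the 6 arrays ended the call of Slc25a28, with adjusted p reaching 0.128. Dropping any array except non-EGFP replicate 3 ended that of Alas1, with adjusted p reaching 0.132, and neither passed with the block (0.0615 and 0.0679). Urod (0.37) and Isca1 (0.11) did not pass (adjusted p = 0.252 and 0.831). Of 9 genes for ribosome recycling and control of initiation, 0 passed (limma, 3 with an unadjusted p under 0.05), at a median difference of 0.43. Eif5 differed by 0.47 and Hbs1l by -0.51 (limma adjusted p = 0.0972 and 0.124). Eif5 passed with trend and robust settings (adjusted p = 0.039) and Hbs1l with arrays centred on their median (adjusted p = 0.0464).

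Of 6 tuft cell markers 3 were higher in CCK-EGFP cells, beside 14.0% of all genes. The mean of the 6 was 7.02 to 8.19 on the CCK-EGFP arrays against 5.44 to 6.02. Dclk1 among them had a non-EGFP mean below the background level and rose by at least 4.14 (limma adjusted p = 0.00592). Of 7 goblet markers 1 was higher and 2 were lower, where 10.2% of all genes were lower. In 5 of the 7 every CCK-EGFP array lay below every non-EGFP array (28.1% of all genes), and in 1 above (21.8%). No Paneth or lymphocyte marker passed (limma, 4 and 8 measured, 0 with an unadjusted p under 0.05). For stroma and endothelium 1 of 10 was lower, and 7 of 10 had means below the background level in each group. The part of tuft cell RNA in the higher ABC genes was not tested.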

How the data were processed

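Total RNA of 6 samples, 3 per group, was measured on Affymetrix mouse arrays. The deposited log2 values were made by the authors with RMA, per the submitters' processing notes, which corrects background, normalizes quantiles and summarises probe sets. Its version is not given in the sources used here. RMA gives no detection call, and quantile normalization can reduce broad shifts. The table has 45101 probe sets, and 34945 with 1 gene symbol gave 18193 genes. Names come from the platform annotation and RefSeq genes (GRCm38.p6), which changed 0 symbols. Abcc2, Abce1, Abcf1 and Abcg4 were read on probe sets of types that can match several related transcripts. So was Cftr among the partner genes. Gss, Scarb1, Acaa1a, Alas1 and Urod were read on probe sets of a type that may also match unrelated sequences.

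The test was a two-sided moderated comparison by limma (version 3.58.1, R 4.3.3), fitted without a block and adjusted by Benjamini-Hochberg over 18193 genes at a threshold of 0.05. The script was tested on simulated data. Figures and tables used Python 3.11.15, numpy 2.4.6, pandas 2.3.3 and matplotlib 3.10.9. A fold against a group mean below the background level of 4.60 is a lower bound. With 3 arrays per group, their number limits the precision. Array medians ranged from 5.66 to 5.72 for the CCK-EGFP arrays and from 5.37 to 5.55 for the others. The deposited values thus still differed in median between the groups despite the stated quantile normalization, and the cause was not tested. Members and lists were chosen with earlier results of these data known.

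Every ABC gene is named; values per array are given for called genes and for others with a group mean above 9. From each partner list up to 4 called genes and up to 2 others are named. Of 48 ABC genes listed by role, 43 were measured and the others are not analysed here. Replicate numbers 1 to 3 occur in each group. Across genes, deviations from group means correlated at 0.27, 0.159 and 0.219 for equal numbers and at -0.245 to -0.0109 for unequal ones. The deviations within a group sum to 0, so the negative values partly follow from the positive ones. A pairing is possible, but the labels do not say what the numbers mark. The main test therefore ignored a pairing, and the replicate number was tried as a block beside it. Tried beside the main setting were a replicate block, filters on dim genes (by the background level, or the lowest 25%), trend and robust settings, array weights, median centring, a second quantile normalization, probe sets averaged or each alone, a least difference of 0.5, and each array left out.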

Additional observations from a re-analysis of the deposited data

How the results depend on the processing

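Of the 14 called ABC genes, 7 kept their call under all 16 alternatives run: Abca5, Abcc1, Abcc2, Abcc4, Abcc6, Abcc12 and Abcg1. No called ABC gene changed sign under any of them, and 27 of 224 values lost the call. The count of higher ABC genes was 6 to 9. The count of lower ones was 9 with arrays centred on their median and after a second quantile normalization, 5 on the mean of probe sets, 2 in the test against a difference of 0.5, and 2 to 7 with an array left out, where CCK-EGFP replicate 1 (3 lower) and CCK-EGFP replicate 2 (2 lower) mattered most; fewer arrays also lower the number of calls a fit can make. The test against a difference of 0.5 ended the calls of Abcc10, Abcd2, Abcd4, Abcg5 and Abcg8 among the lower genes and of Abcc3 among the higher ones. With the replicate number as a block 8 were higher and 7 lower, Abcg3 being the addition, and all 14 calls held.

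Centring each array on its median moved the median difference of all genes from -0.17 to -0.42. In that setting Abca7 (-0.20), Abcb1a (-0.036), Abcf2 (-0.13) and Isca1 (-0.14) changed sign, none of them called. On the mean of all probe sets Abca3 (-0.13), Abcb10 (-0.17), Abcb9 (-0.29), Abcf2 (-0.015), Abcf3 (0.30) and Isca1 (-0.59) did. After a second quantile normalization Abca7 (-0.046), Abca8a (0.055) and Abcf2 (-0.41) did, and with array weights Apoa1 (0.0064) did. With 1 array left out the ranges that cross 0 were -0.16 to 0.27 for Abca7, -0.15 to 0.051 for Abcd3, -0.13 to 0.28 for Abcf2, -0.046 to 0.036 for Apoa1 and -0.14 to 0.50 for Isca1. The cause of these changes was not tested. Signal near background limits Abcd2, and 3 arrays per group limit small differences.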
